A study of Mus musculus with 15 samples.

Results

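Sox18, its relatives Sox17 and Sox7, the endothelin genes Edn1 and Ednrb, and the endothelial genes Nos3, Eng, Emcn, Vwf and Eltd1 (now Adgrl4) were followed through fear extinction in the mouse hippocampus. These 10 genes were picked by name, with every array probe that carries one of the names. They are 10 of 27962 gene names and hold 17 of 41174 probes. All 10 genes and all 17 probes passed the filter on dim probes. The choice drew on their levels in the 2 extinction groups against control, so those differences are given as a description and carry no test. For these genes only the comparison of the 2 extinction groups with each other is tested, and it shares its arrays with the others.

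The study put male C57BL/6J mice, an inbred wild-type strain, through contextual fear conditioning, in which a box is paired with a footshock. Mice were then returned to the box on successive days without the shock, which is extinction training. RNA of the hippocampus was taken from 5 mice 1 h after the first extinction trial, when they froze much (E1), and from 5 mice 1 h after trial 5, when freezing had declined (ELF). The 5 control mice are called naive in the sample names and are described in the design text as placed in the box without the shock. The labels give no age and no transgene for any group, and each array is 1 biological replicate.

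Endothelial cells line the blood vessels, and in the brain they form the blood-brain barrier. SOX18, SOX17 and SOX7 make up the SOXF group of transcription factors, which act together in forming blood and lymph vessels and in holding arterial identity. Endothelin-1, the peptide made from Edn1, is released by endothelium and constricts vessels through a receptor on smooth muscle, while the receptor encoded by Ednrb sits on endothelium and, in the brain, also on astrocytes. In whole tissue, fewer endothelial cells and less RNA per endothelial cell cannot be told apart.

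Promoter sequence was at hand for 5 of the 10 genes, Edn1, Ednrb, Eng, Emcn and Adgrl4, from RefSeq on GRCm38.p6. The 250 bases before the start site were searched on both strands for ACAAT, the core that SOX factors bind, and for GGAAG, a core bound by ETS factors of the endothelium. The SOX core was found in 2 of the 5, with 4 matches in Edn1 and 1 in Emcn, and 27.7% of 32851 promoters of that length hold it. The ETS core was found in all 5, against 64.1% of all promoters. GATAA and TGANTCA, the GATA and AP-1 cores, matched in none of the 5 and in 22.6% and 6.75% of all promoters. Edn1 is shown because, among the 10 genes, its level followed that of Sox18 most closely over all arrays, group differences included. Eng and Adgrl4 are shown because they lack the SOX core. Capitals mark the SOX core (ACAAT or ATTGT) and the ETS core (GGAAG or CTTCC), and each line runs 5′ to 3′ on the gene's strand and ends at the base before the start site.
Edn1, chr13:42301226-42301475, plus strand: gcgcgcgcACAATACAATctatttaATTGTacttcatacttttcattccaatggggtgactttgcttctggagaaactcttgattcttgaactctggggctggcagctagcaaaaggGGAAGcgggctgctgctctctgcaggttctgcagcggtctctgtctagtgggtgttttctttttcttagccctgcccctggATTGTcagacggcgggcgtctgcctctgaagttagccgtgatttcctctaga
Eng, chr2:32646345-32646594, plus strand: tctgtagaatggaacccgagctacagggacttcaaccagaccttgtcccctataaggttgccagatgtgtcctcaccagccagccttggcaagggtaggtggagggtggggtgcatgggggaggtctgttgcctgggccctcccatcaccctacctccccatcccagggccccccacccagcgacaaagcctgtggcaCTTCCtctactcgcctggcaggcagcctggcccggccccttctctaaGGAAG
Adgrl4, chr3:151437632-151437881, plus strand: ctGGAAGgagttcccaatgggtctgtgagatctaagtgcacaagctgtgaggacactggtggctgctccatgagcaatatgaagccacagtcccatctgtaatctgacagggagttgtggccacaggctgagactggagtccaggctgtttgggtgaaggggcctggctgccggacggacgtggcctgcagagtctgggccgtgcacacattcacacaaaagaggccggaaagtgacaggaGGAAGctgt
The SOX cores of Edn1 begin 242, 237, 225 and 52 bases before the start site, and the first pair are adjacent. These matches describe the letters in the window and show no binding.

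The arrays had a 75th percentile intensity between 1441 and 2932, and 83.5% to 97.2% of their spots were well above background. Each level is the log2 intensity minus that of the 75th percentile on the same array, which compares arrays for 1 probe and not 1 gene with another. Where a gene has several probes, the brightest over the 15 arrays is meant unless another is named. Each difference comes with its standard error (SE) from limma, fitted over 26117 genes, and "called" means a Benjamini-Hochberg adjusted p under 0.05 in that fit. Values of any further probe of a gene come from the same model fitted over all 38457 probes that passed the filter. The arrays lay on 4 slides. Slide 1 held control 1 to 4, slide 2 held control 5 with E1 1 to 3, slide 3 held E1 4 and 5 with ELF 3 and 4, and slide 4 held ELF 1, 2 and 5. No control array shared a slide with an ELF array, so for that comparison slide and group can be separated only through the E1 arrays. All 9 measured markers of hippocampal fields were above background on all 15 arrays.

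Sox18, which encodes the SOXF factor best known from vessel and hair defects of its mutants, was lower on every extinction array than on every control array. The control arrays read -0.70, -1.02, -0.85, -1.15 and -1.27 from the first to the fifth. On the E1 arrays the level was -1.88, -2.09, -2.16, -1.97 and -2.42, and on the ELF arrays -1.96, -1.59, -2.00, -1.93 and -1.77. Neither extinction group overlapped control, while E1 and ELF overlapped each other. Control averaged -1.00 ± 0.23, E1 -2.10 ± 0.21 and ELF -1.85 ± 0.17 (SD, n = 5). E1 was thus lower than control by 2.15-fold, a log2 difference of -1.11 (SE 0.13), and ELF by 1.81-fold, a difference of -0.85 (SE 0.13). From E1 to ELF the level differed by 0.25 (SE 0.13, limma adjusted p = 0.546), which did not pass. The probe lies at chromosome 2, 182170995 to 182171054 of mm7.

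Edn1, the gene of endothelin-1, showed the same order of groups. Its control arrays read -2.77, -3.24, -3.62, -3.51 and -3.93. The E1 arrays read -4.45, -4.39, -4.67, -4.77 and -5.15, and the ELF arrays -4.55, -4.15, -4.15, -4.46 and -4.40. Again all 10 extinction arrays lay below all 5 control arrays, and control 5 came nearest to them. The control, E1 and ELF means were -3.41 ± 0.44, -4.68 ± 0.30 and -4.34 ± 0.18, with differences from control of -1.27 (SE 0.20) in E1 and -0.93 (SE 0.20) in ELF. ELF and E1 differed by 0.34 (SE 0.20, limma adjusted p = 0.600). This probe lies at chromosome 13, 41748495 to 41748554 of mm7.

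**Figure D1:**
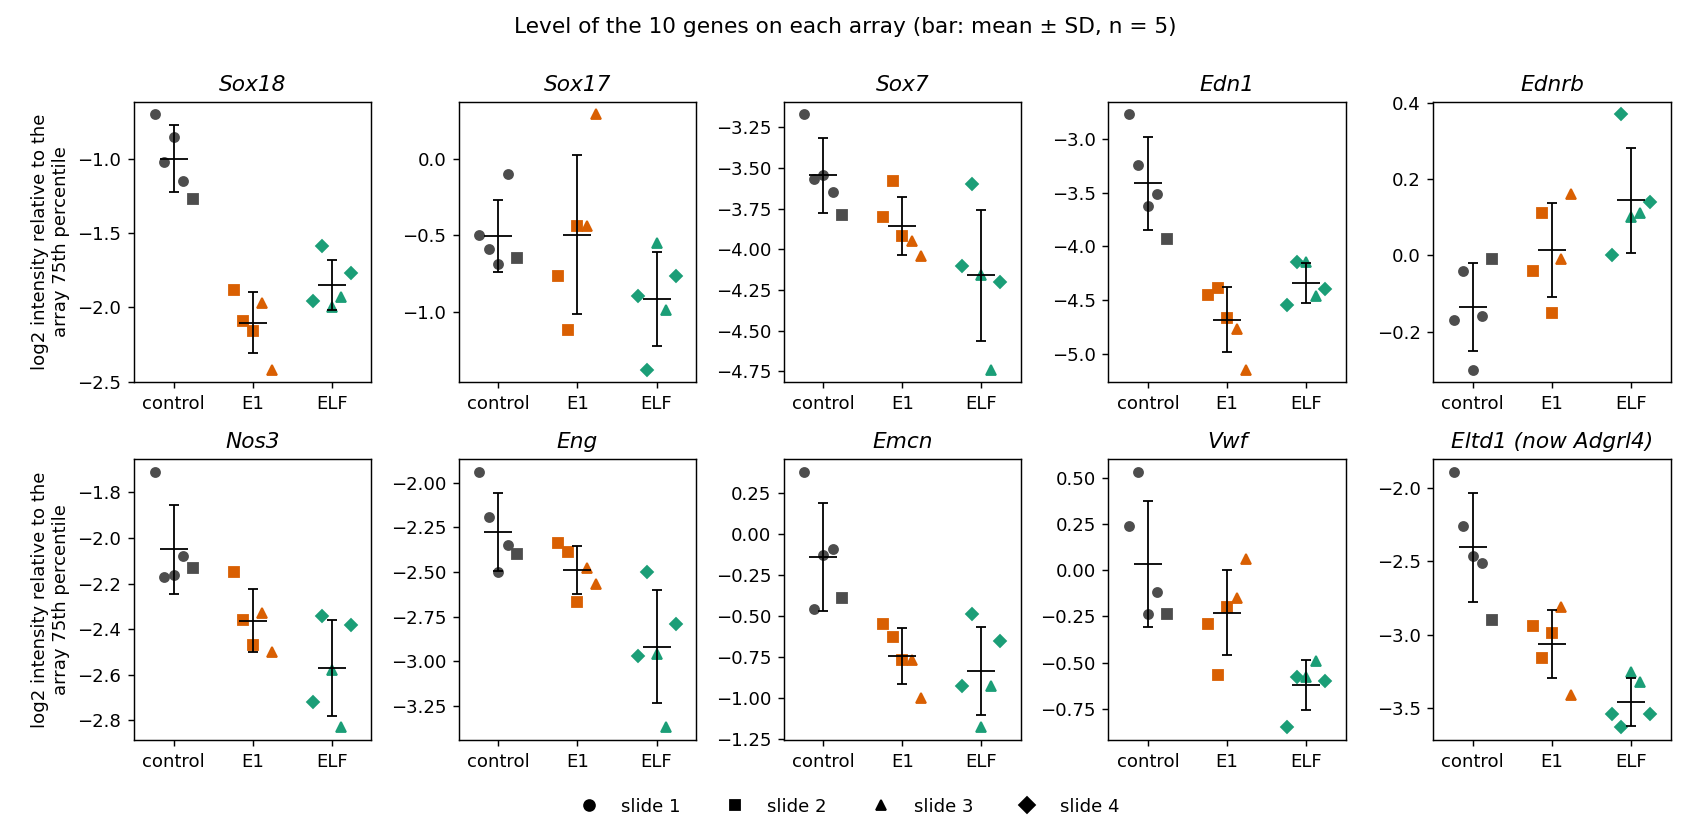
Level of each of the 10 genes on all 15 arrays as log2 intensity relative to the array's 75th percentile, by group, with the mean ± SD of 5 arrays and a marker shape for each of the 4 slides. All 10 extinction arrays lie below all 5 control arrays for Sox18 and Edn1, whereas the groups of Sox17 overlap and Ednrb lies slightly higher in ELF than in control.

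Sox18 and Edn1 also followed each other across arrays. Over the 15 arrays Pearson's r between them was 0.939, and Sox18 ranked first of 26051 genes by likeness to Edn1, while Edn1 ranked 2 by likeness to Sox18. After each group's mean was removed r was 0.694, and Emcn (0.808) and Nos3 (0.732) then followed Sox18 more closely than Edn1 did. Among genes outside the 10, those most like Sox18 were AK051975 (r = 0.942), Cldn5 (0.930), AK169992 (0.908), AK044091 (0.905) and Tbx1 (0.905). Those most like Edn1 were Cldn5 (0.938), 2900052L18Rik (0.926), AK085158 (0.918), Tbx1 (0.915) and Thsd1 (0.911). With group means removed, r with Sox18 ran from 0.594 for Cldn5 to 0.906 for AK169992. With Edn1 it then ran from 0.663 for 2900052L18Rik to 0.864 for Thsd1, with Cldn5 at 0.718. Cldn5 encodes claudin-5, the main tight junction protein of brain endothelium, and Tbx1 a T-box transcription factor. These arrays share groups, slides and scaling, so the values describe likeness and carry no test. Emcn was 14th in likeness to Sox18 (r = 0.875), while the brightest Sox17 probe (r = -0.0456) and Ednrb (r = -0.536) did not follow Sox18.

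The other SOXF genes did not share the pattern of Sox18 in a simple way. Sox7 read -3.17, -3.57, -3.54, -3.65 and -3.79 in control. It read -3.80, -3.58, -3.92, -3.95 and -4.04 in E1, and -4.10, -3.60, -4.16, -4.74 and -4.20 in ELF. Most ELF arrays lay below control, but ELF 2 did not, and both extinction groups overlapped control. The differences from control were -0.31 (SE 0.18) in E1 and -0.61 (SE 0.18) in ELF, and ELF differed from E1 by -0.30 (SE 0.18, limma adjusted p = 0.608). A dimmer Sox7 probe gave -0.53 (SE 0.28) and -0.34 (SE 0.28) against control.

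For Sox17, the SOXF gene tied to arterial identity, the result turned on the probe. The brightest probe (chromosome 1, 4487401 to 4487460 of mm7) read -0.50, -0.59, -0.69, -0.10 and -0.65 in control, and -0.77, -1.12, -0.44, -0.44 and 0.29 in E1. In ELF it read -0.90, -1.38, -0.55, -0.99 and -0.77. All groups overlapped, and the differences were 0.01 (SE 0.23) for E1, -0.03 in the authors' deposited values, and -0.41 (SE 0.23) for ELF against control. ELF minus E1 was -0.42 (SE 0.23, limma adjusted p = 0.568).

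A second Sox17 probe, A_52_P279368, lies 387 bases away (4487014 to 4487073) and was matched by the array design to the same transcript. It read -0.92, -1.33, -1.48, -1.74 and -2.05 in control, and -2.19, -2.28, -2.90, -2.68 and -3.09 in E1. The ELF arrays read -3.10, -2.84, -2.32, -2.43 and -2.70. With this probe every extinction array lay below every control array, as for Sox18. Its differences from control were -1.12 (SE 0.23) in E1 and -1.17 (SE 0.23) in ELF, and -0.05 (SE 0.23) between ELF and E1 (limma adjusted p over all probes = 0.962). Its r over the 15 arrays was 0.88 with Sox18 and 0.07 with the brightest Sox17 probe. The probes share a strand but not their base composition, with 35.0% G and C in this one and 55.0% in the brightest.

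Another pair of Sox17 probes was dimmer. A_52_P365096, which lies 3341 bases from the brightest, differed from control by -0.16 (SE 0.32) in E1 and 0.41 (SE 0.32) in ELF. A_52_P1180325 was above background on 3 control, 2 E1 and 3 ELF arrays. It was designed to the cDNA AK051370 and is listed on the opposite strand, so whether its signal is that of Sox17 is uncertain. Its differences were 0.20 (SE 0.27) and 0.75 (SE 0.27).

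**Figure D2:**
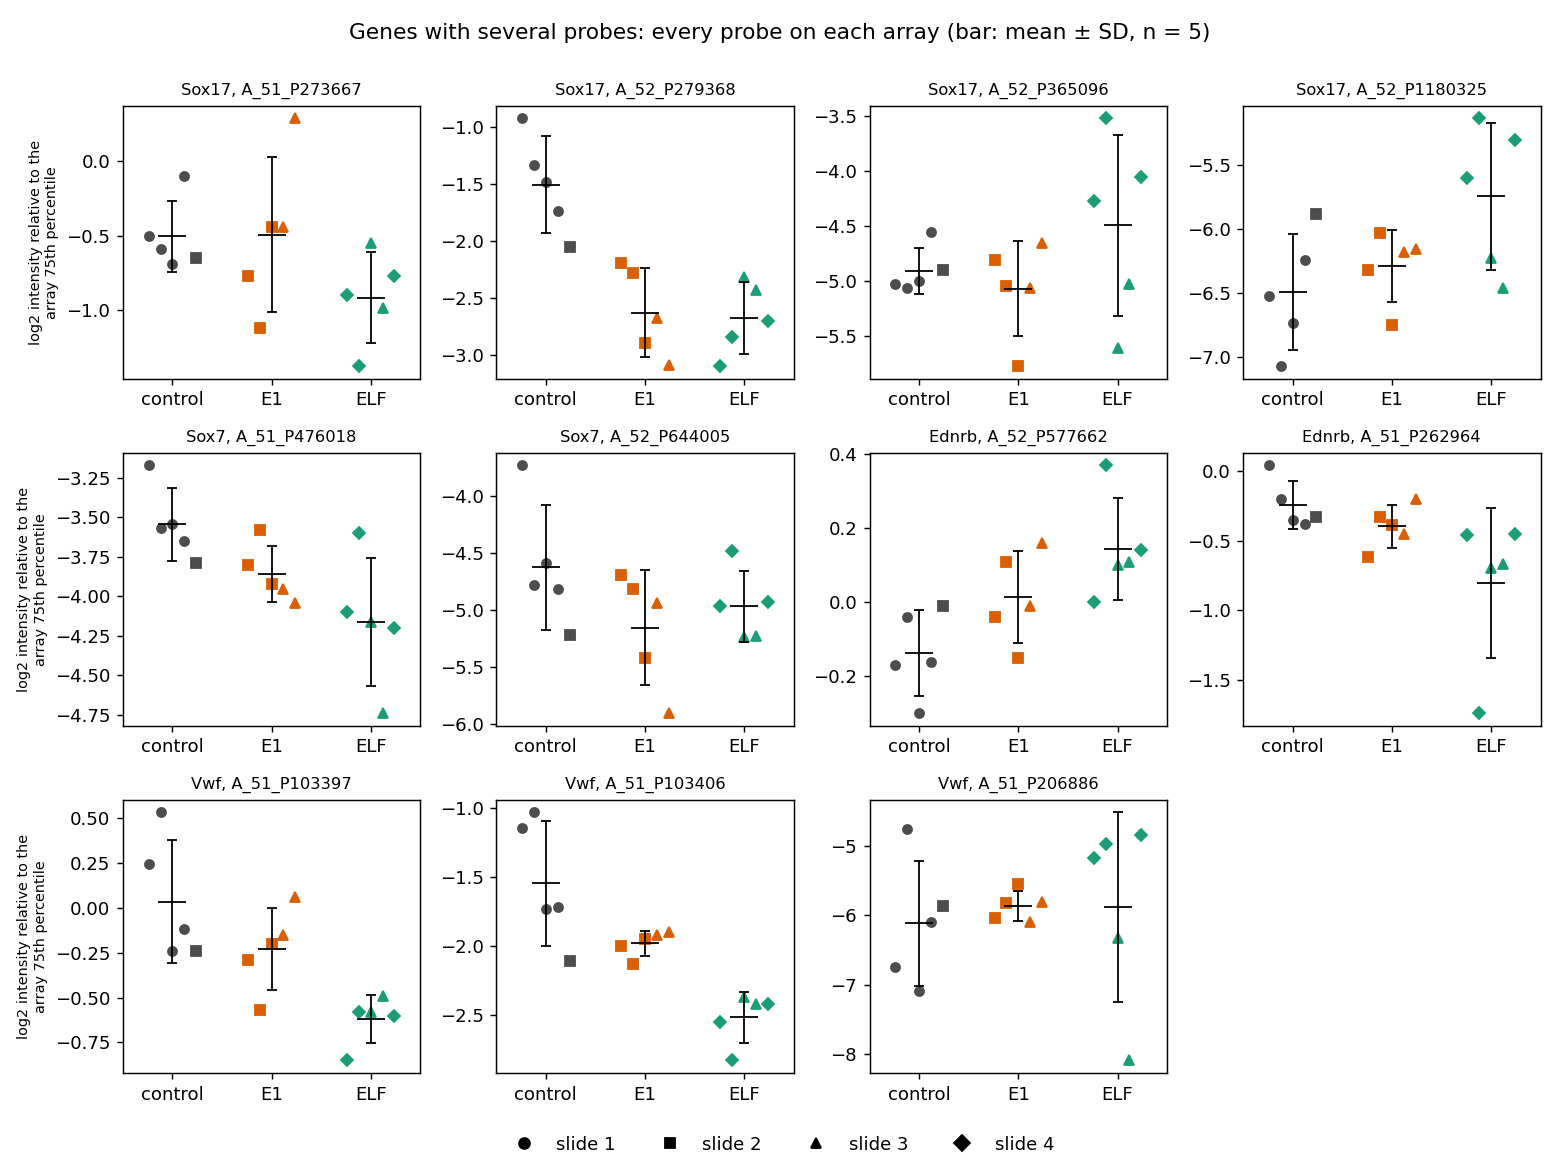
Every probe of the 4 genes with several probes (Sox17, Sox7, Ednrb, Vwf) on the 15 arrays, as log2 intensity relative to the array's 75th percentile with the mean ± SD of 5 arrays and a marker for each slide. Sox17 probe A_52_P279368 is lower on all 10 extinction arrays than on all 5 control arrays, whereas the groups of A_51_P273667 overlap.

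Ednrb, which encodes the endothelin B receptor, went the other way with its brighter probe. It read -0.17, -0.04, -0.30, -0.16 and -0.01 in control, -0.04, 0.11, -0.15, -0.01 and 0.16 in E1, and 0.00, 0.37, 0.10, 0.11 and 0.14 in ELF. Every ELF array lay above every control array, by a mean of 0.28 (SE 0.09), and E1 lay between them, 0.15 (SE 0.09) above control. The ELF to E1 difference was 0.13 (SE 0.09, limma adjusted p = 0.683). A second probe, A_51_P262964, 1763 bases away, differed by -0.15 (SE 0.20) in E1 and -0.56 (SE 0.20) in ELF, and its r with the brighter probe was -0.65. With the mean of both probes Ednrb differed by -0.14 in ELF, so the array gives no settled direction for this receptor.

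Of 6 further genes of the endothelin system, none was called in any comparison by limma, and their median difference was 0.05 in E1 and 0.28 in ELF against control. Edn2, which encodes another endothelin peptide, was the one nearest the threshold, at -5.72 ± 0.62 in control and -4.42 ± 0.66 in E1 (difference 1.30, SE 0.38, limma adjusted p = 0.142). Edn3 differed by 0.65 in ELF (SE 0.29, limma adjusted p = 0.206). Values for the vasoconstricting receptor Ednra were 0.06 and 0.17 in E1 and ELF against control, and for the converting enzyme Ece1 they were -0.27 and -0.13.

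Nos3, Eng, Emcn, Vwf and Eltd1 were lower in ELF than in control without overlap, and in E1 they lay between control and ELF on average. Nos3 encodes the endothelial nitric oxide synthase, which relaxes vessels and is spotted 10 times on each array. It read -1.71, -2.17, -2.16, -2.08 and -2.13 in control, -2.15, -2.36, -2.47, -2.33 and -2.50 in E1, and -2.72, -2.34, -2.58, -2.83 and -2.38 in ELF. The first control array stood above the other 4. Differences from control were -0.31 (SE 0.12) in E1 and -0.52 (SE 0.12) in ELF, and the E1 to ELF step of -0.21 did not pass (SE 0.12, limma adjusted p = 0.606).

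Eng encodes endoglin, a co-receptor for BMP ligands on endothelium. It read -1.94, -2.19, -2.50, -2.35 and -2.40 in control, -2.34, -2.39, -2.67, -2.48 and -2.57 in E1, and -2.97, -2.50, -2.96, -3.37 and -2.79 in ELF. The E1 arrays overlapped control, and the highest ELF array, ELF 2, lay below the lowest control array only past the second decimal. Differences from control were -0.22 (SE 0.15) and -0.64 (SE 0.15). Among the 10 genes Eng had the lowest p between ELF and E1, with a difference of -0.42 (SE 0.15, limma adjusted p = 0.409).

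Emcn encodes endomucin, a sialomucin on the surface of capillary and venous endothelium. It read 0.38, -0.46, -0.13, -0.09 and -0.39 in control, -0.55, -0.63, -0.77, -0.77 and -1.00 in E1, and -0.93, -0.49, -1.18, -0.93 and -0.65 in ELF. Here both extinction groups lay wholly below control, though the gap to control 2 was narrow. The differences were -0.61 (SE 0.16) and -0.70 (SE 0.16), and -0.09 (SE 0.16) from E1 to ELF (limma adjusted p = 0.899).

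Vwf encodes von Willebrand factor, a clotting protein stored in the Weibel-Palade bodies of endothelium. Its brightest probe read 0.24, 0.53, -0.24, -0.12 and -0.24 in control, -0.29, -0.57, -0.20, -0.15 and 0.06 in E1, and -0.85, -0.58, -0.58, -0.49 and -0.60 in ELF. E1 overlapped control and ELF did not, with differences of -0.26 (SE 0.15) and -0.65 (SE 0.15). ELF and E1 differed by -0.39 (SE 0.15, limma adjusted p = 0.457). A probe 693 bases away followed it (r = 0.91) with -0.44 (SE 0.18) and -0.97 (SE 0.18). The third Vwf probe was above background on 3 arrays of each group and gave 0.25 and 0.23 (SE 0.56 each).

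Eltd1, an adhesion G protein-coupled receptor of endothelium, had after Edn1 and Sox18 the largest difference in E1, and the largest of the 10 in ELF. It read -1.89, -2.26, -2.46, -2.51 and -2.90 in control, -2.94, -3.16, -2.99, -2.81 and -3.41 in E1, and -3.54, -3.63, -3.25, -3.32 and -3.54 in ELF. All ELF arrays lay below control, while 1 E1 array lay above the lowest control array. Means were -2.40 ± 0.37, -3.06 ± 0.23 and -3.46 ± 0.16, with differences of -0.66 (SE 0.16) in E1 and -1.05 (SE 0.16) in ELF. ELF minus E1 was -0.40 (SE 0.16, limma adjusted p = 0.478), which did not pass.

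**Figure D3:**
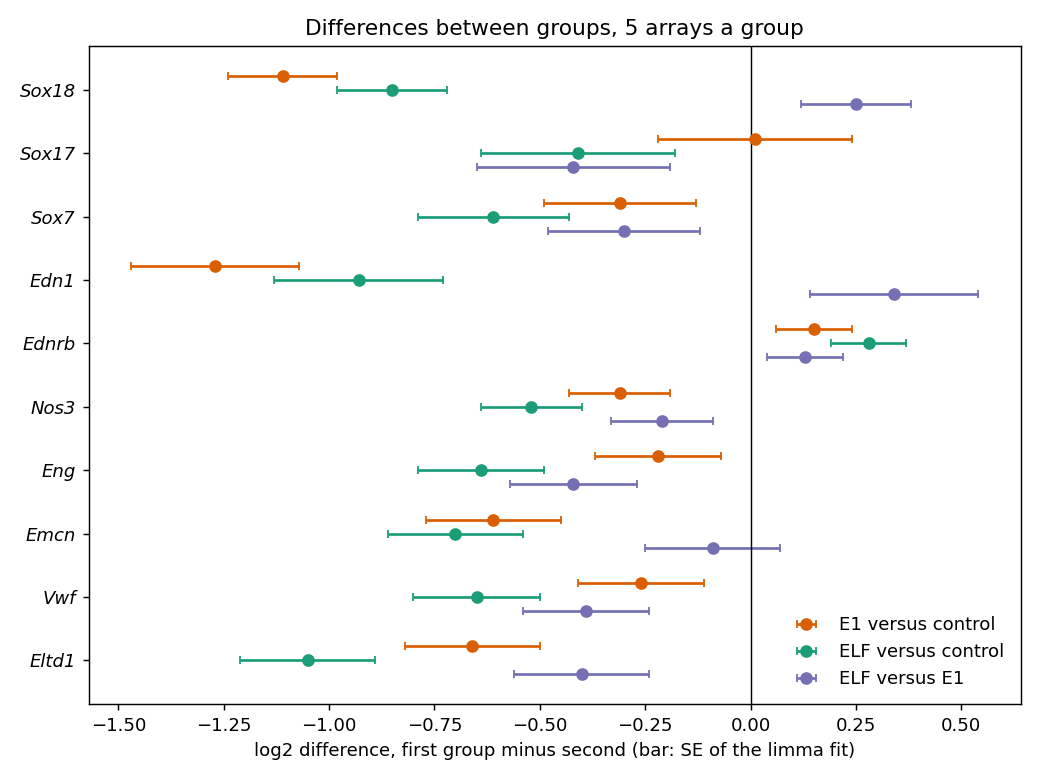
Log2 difference of each gene in E1 versus control, ELF versus control and ELF versus E1, as points with the SE of the limma fit as bars (5 arrays a group, brightest probe of each gene). Sox18 and Edn1 have their most negative value in E1 versus control, whereas Nos3, Eng, Vwf and Eltd1 have theirs in ELF versus control.

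Counted together, 8 of the 10 genes were lower in E1 than in control, with a median difference of -0.31 against 0.04 for all genes. Of them 2, Sox18 and Edn1, were called lower, beside 0.0536% of all genes. In ELF 9 of 10 were lower, with a median of -0.65 against 0.10 for all genes. There 7 were called lower (Sox18, Edn1, Nos3, Eng, Emcn, Vwf and Eltd1), beside 0.662% of all genes. Sox18, Edn1 and Emcn had all E1 arrays below control, a pattern of 1.62% of all genes, and the 7 had all ELF arrays below control, a pattern of 2.22%. Ednrb had all ELF arrays above control, as did 2.53% of all genes. Sox18, Edn1 and Emcn had all 10 extinction arrays below all 5 control arrays, as did 0.379% of all genes. Since these contrasts chose the genes, nothing is read from the counts.

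ELF and E1 could be compared with a test. By limma 0 of the 10 genes were called, with adjusted p between 0.409 and 0.899, beside 0.00766% of all genes called in either direction. At an unadjusted p under 0.05 there were 3, Eng, Vwf and Eltd1, of 2518 among all genes, and none of the 10 was called in any other fit of this comparison. With slide as a fixed block, that fit called 4425 of all 26117 genes lower and 695 higher in ELF than in E1. Nearest the threshold among the 10 were then Eng at -0.64 (SE 0.21, limma adjusted p = 0.0517) and Edn1 at 0.66 (SE 0.25, limma adjusted p = 0.0884). A difference between the trials is therefore not shown for any of the 10 genes, nor is equality, with SE from 0.09 to 0.23 without a block. The median difference was -0.25 against 0.05 for all genes. Sox18 and Edn1 were higher in ELF than in E1 on average, as was Ednrb, and the other 7 were lower.

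Slide and single arrays moved with these levels. Within slide 2, the mean of the 3 E1 arrays minus control 5 was -0.78 for Sox18, and all 3 lay below it. For Edn1 the difference there was -0.57, again with all 3 below control 5. It was -0.26 for Emcn, -0.20 for Nos3, -0.13 for Sox17 and for Eltd1, -0.11 for Vwf, -0.07 for Eng, -0.02 for Ednrb and 0.03 for Sox7, with -0.04 for the median of all genes. Control 5 itself lay below the mean of the 4 slide 1 controls for 9 of the 10 genes, and 37.8% of all genes did so. On slide 3, ELF minus E1 was 0.23 for Sox18 and 0.66 for Edn1, and 0.03 for Ednrb. It was -0.69 for Sox17, -0.64 for Eng, -0.49 for Vwf, -0.45 for Sox7, -0.29 for Nos3, -0.18 for Eltd1 and -0.17 for Emcn, against -0.18 for the median of all genes.

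With slide as a fixed block none of the 10 was called in either comparison with control, where 3 and 62 of all 26117 genes were called lower in E1 and ELF. Sox18 then differed by -0.78 in E1 and -0.55 in ELF, Eltd1 by -0.13 and -0.31, and Edn1 by -0.57 and 0.08, so that Edn1 in ELF changed sign. Nos3, Eng, Emcn and Vwf differed in ELF by -0.48, -0.71, -0.43 and -0.60, against -0.22 for the median of all genes. With slide as a random block none of the 26117 genes was called in any comparison, and Sox18 differed by -0.94 in E1 and -0.74 in ELF, and Eltd1 by -0.80 in ELF. With another background correction (normexp) Edn1, a dim gene, differed by -0.68 in E1 and -0.56 in ELF and was called in neither. In a fit of only the ELF and control arrays none of the 10 was called, nor was any of the 26117 genes, and the differences stayed at -0.85 for Sox18, -0.93 for Edn1 and -1.05 for Eltd1.

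The calls against control are a description of genes chosen on these contrasts, and so are their counts with 1 array left out, which support nothing. Sox18 was called in E1 versus control in 10 of 10 such fits and Edn1 in 4 of 10. Edn1 missed the threshold without control 2, 3 or 4 or without E1 3, 4 or 5 (highest limma adjusted p = 0.0756). In ELF versus control Sox18 and Eltd1 were called in 8 of 10, Nos3, Eng, Emcn and Edn1 in 3 and Vwf in 2. Without control 2 or without control 3 none of the 10 was called there, and none of all 26117 genes. Only Sox18 and Eltd1 were called without control 1, control 4, ELF 1 or ELF 5, and these and Edn1 without ELF 3. E1 and control arrays of the same number deviated together only weakly (r from 0.14 to 0.30), and the labels state no pairing. In a fit of only these 10 arrays with the number as a block 5 genes were called lower, Sox18, Edn1, Nos3, Emcn and Eltd1. That fit called 745 genes lower and 2456 higher of 26117, against 14 and 35 without the block and with all arrays, so calls became more frequent throughout.

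Among 25 further genes of the endothelial surface, 22 were lower in E1 and 18 in ELF than in control, beside 41.2% and 35% of all genes. Called lower were 2 in E1 and 7 in ELF, and none was called higher. Of all genes 0.0536% and 0.662% were called lower in these comparisons, and 0.134% and 1.49% higher. Their median difference was -0.27 in E1 and -0.37 in ELF, against 0.04 and 0.10 for all genes. This list and those below were written with earlier results of these arrays known. Cldn5 fell by 0.93 (SE 0.14, limma adjusted p = 0.0197) in E1, from 1.65 ± 0.28 to 0.72 ± 0.19, and by 0.74 (limma adjusted p = 0.0285) in ELF. Kdr encodes the main VEGF receptor of endothelium and fell by 0.86 and 0.98 (limma adjusted p = 0.0489 and 0.0195). In ELF, Flt1, another VEGF receptor gene, fell by 1.14, and Ptprb, an endothelial phosphatase, by 1.66 (SE 0.35). The Ptprb level was uneven among the ELF arrays, at -0.83 ± 0.92 against 0.84 ± 0.45 in control. Also in ELF, Mmrn2, a matrix protein of vessels, fell by 0.95, Robo4 by 0.83 and the surface lectin-like receptor Cd93 by 0.72. In the 10 fits without 1 array, Kdr missed the limma threshold in 9 for E1 and 2 for ELF, Cldn5 in 5 and 6, Flt1 and Ptprb in 6, Robo4 and Cd93 in 7 and Mmrn2 in 2. With the slide block the values were -0.62 for Cldn5 and -0.31 for Kdr in E1, and from -0.57 (Ptprb) to -0.12 (Cldn5) for the 7 in ELF, none called.

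Of 21 further transcription factors of endothelium, 17 were lower in E1 and 19 in ELF than in control, with medians of -0.25 and -0.13. Only Klf4 was called, lower by 0.89 in ELF (SE 0.20, limma adjusted p = 0.0418). Of 15 Notch and arterial genes, 9 were lower in E1 and 9 in ELF. Only Notch4, an endothelial Notch receptor, was called, lower by 0.56 in ELF (SE 0.11, limma adjusted p = 0.0326). Of 10 further genes of Weibel-Palade bodies and secreted endothelial proteins, 5 were lower in E1 and 4 in ELF. Only Igfbp7, a secreted binding protein abundant in brain vessels, was called, lower by 0.97 in ELF (SE 0.18, limma adjusted p = 0.0259). Of all genes 0.662% were called lower in ELF. Without 1 array, Klf4 missed the limma threshold in 7 of 10 fits, Notch4 in 5 and Igfbp7 in 4, and blocked by slide they differed by -0.06, -0.17 and -0.66.

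Around Nos3, none of 12 further genes of nitric oxide and cGMP signalling was called by limma, and the medians were -0.02 in E1 and 0.09 in ELF. Nostrin, whose product binds the synthase, differed by -0.39 in ELF (limma adjusted p = 0.0653), and Pde5a, a cGMP-degrading enzyme, by -0.36 (limma adjusted p = 0.0652). Around Eng, none of 16 further genes of BMP receptor signalling was called. Tgfbr2 differed by -0.40 in ELF (limma adjusted p = 0.105), and Acvrl1, which encodes the endothelial receptor ALK1, by -0.31 (limma adjusted p = 0.132).

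Levels of cell type markers moved beside the 10 genes. Of the 12 endothelial markers measured (14 listed), all 12 were above background on all arrays. In E1 12 and in ELF 11 were lower than in control, beside 41.2% and 35% of all genes. Pecam1, Cdh5, Tie1, Tek, Cldn5, Kdr, Flt1, Esam1 and Icam2 are also in the list of surface genes, so these lists overlap. Besides Cldn5, Kdr and Flt1, Abcb1a, a drug efflux pump of the barrier, fell in ELF by 1.20 (limma adjusted p = 0.0174). Their summed level, on the log2 scale, ran from 3.77 to 4.57 in control, 3.29 to 3.75 in E1 and 3.30 to 3.72 in ELF. The mean of their log2 levels was -0.89 ± 0.27, -1.40 ± 0.07 and -1.51 ± 0.17, and control 1 was highest at -0.42. The 11 choroid plexus markers had a mean of 0.99 ± 0.32 in control, 0.72 ± 0.31 in E1 and -0.35 ± 1.36 in ELF, where ELF 3 stood at -2.76. ELF 1, 2, 4 and 5 stood at 0.37, 0.02, 0.36 and 0.26, also below all control arrays (0.64 to 1.33). All 11 markers were lower in E1 and in ELF than in control, and none was called. Mural cell markers ran from -0.73 to -0.30 in control, -0.65 to -0.38 in E1 and -1.00 to -0.37 in ELF. Of these 12 markers 7 were lower in ELF than in control, with a median difference of -0.13. Only Rgs5, a pericyte gene, was called, lower by 0.65 in ELF (limma adjusted p = 0.0414). Neuronal markers were at 3.31, 3.36 and 3.31, astrocyte markers at 2.58, 2.64 and 2.61, and microglial markers at 0.33, 0.47 and 0.54. Of the 13 microglial markers 3 were lower in E1 and 2 in ELF than in control, with median differences of 0.19 and 0.25. Of 10 markers of meninges and fibroblasts, 9 were lower in E1 and 6 in ELF, with medians of -0.24 and -0.02. No gene of these 2 lists was called. Of the 12 astrocyte markers 5 were lower in ELF than in control, and only Acsbg1 was called, higher by 0.35 (limma adjusted p = 0.0498). Acsbg1 missed the threshold in 8 of 10 fits without 1 array, as Rgs5 did in 6 and Abcb1a in 2. With slide as a fixed block none of these 3 was called, and they differed by 0.06 for Acsbg1 (limma adjusted p = 0.888), -0.58 for Rgs5 (adjusted p = 0.331) and -0.47 for Abcb1a (adjusted p = 0.463). The part of these lists in the levels of the 10 genes was not tested.

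**Figure D4:**
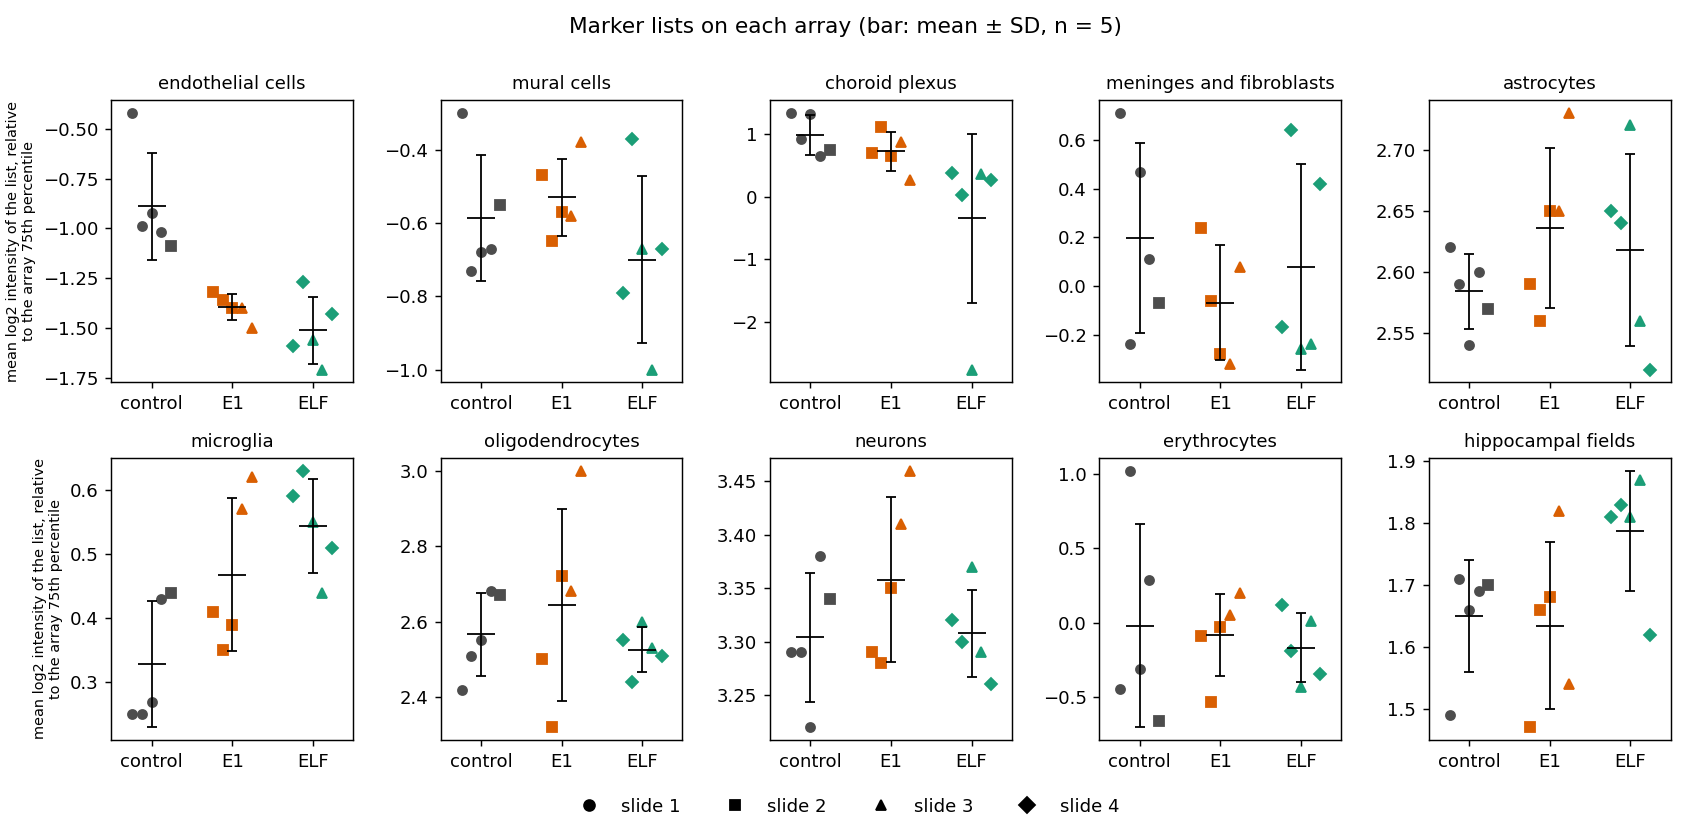
Mean log2 intensity of marker lists on each of the 15 arrays, relative to the array's 75th percentile, with the mean ± SD of 5 arrays and a marker for each slide. Endothelial markers average -0.89 in control against -1.40 in E1 and -1.51 in ELF, while the choroid plexus markers of ELF 3 lie at -2.76, below those of all other arrays. Those of ELF 1, 2, 4 and 5 lie between 0.02 and 0.37, below all control arrays (0.64 to 1.33).

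Set against the mean of the 12 endothelial markers on the same array, Sox18 and Edn1 remained lower in E1. The E1 differences of the other genes ran from -0.15 for Eltd1 to 0.66 for Ednrb. Relative to that mean, control averaged -0.11 ± 0.13 for Sox18, E1 -0.71 ± 0.15 and ELF -0.34 ± 0.08, and its E1 arrays (-0.92 to -0.56) lay below all control arrays (-0.28 to 0.07). Edn1 was at -2.53 ± 0.25, -3.29 ± 0.24 and -2.83 ± 0.16, also without overlap between E1 and control. ELF overlapped control for both genes on this scale. The ELF arrays ran from -0.45 to -0.22 for Sox18. For Edn1 they ran from -2.97 to -2.59, against -2.84 to -2.24 in control. On this scale the E1 differences from control were -0.10 for Emcn and -0.15 for Eltd1, and 0.19 for Nos3, 0.29 for Eng and 0.25 for Vwf. In ELF they were -0.23 for Sox18, -0.30 for Edn1, -0.43 for Eltd1, -0.07 for Emcn, -0.03 for Vwf, -0.02 for Eng and 0.11 for Nos3. The marker list itself differed by -0.51 in E1 and -0.63 in ELF. A gene whose level did not change therefore lies higher on this scale in both groups. The share of all genes higher, lower or without overlap was not computed on this scale, so these values are a description.

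With control 1 and ELF 3 both left out, which stood apart for endothelial and choroid plexus markers, Sox18 differed from control by -1.03 in E1 and -0.74 in ELF, and Edn1 by -1.11 and -0.81. Sox18 was then called in both comparisons, Edn1 in E1 versus control, and Eltd1 in ELF (difference -0.98). Of all 26117 genes this fit called 7 lower and 12 higher in E1, and 14 lower and 114 higher in ELF. The arrays to leave out were picked after the data were seen, so these calls support nothing. Control 1 was the highest control array for 7 of the 10 genes, as it was for 19.7% of all genes.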

How the data were processed

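RNA from 15 hippocampi was hybridised to 15 single-colour (Cy3) Agilent arrays, 5 a group, with groups taken from the sample labels. Per the file headers, Agilent Feature Extraction 9.5.3.1 gave a background-subtracted processed intensity for each of 45018 spots. Other columns used hold the mean spot intensity, the median background intensity and flags of 0 or 1. The submitters' processing notes also name limma. The authors' deposited table holds log2 values (array medians 8.68 to 8.92) that followed log2 of the mean spot intensity (r at least 0.996). They served as an alternative, and the sources used here do not give their normalization.

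From the processed intensity, 1639 control spots and outlier spots were left out, log2 values were set relative to each array's 75th percentile, and spots were averaged to 41174 probes. A probe counted as above background on an array if at least 50% of its spots did. Probes well above background on at least 5 of 15 arrays were kept (38457), and the brightest probe of a gene was used (26117 genes, of which 26052 without missing values served for likeness). The comparisons used limma 3.58.1 (R 4.3.3) with lmFit and eBayes, two-sided, on all 15 arrays without a covariate, after the pipeline was tested on simulated data. Alternatives were other background corrections (normexp, offset 50), normalizations, filters, probes and samples, blocks for slide or replicate number, and leaving out 1 array. The genes and lists were chosen with earlier results of these data known. Named were all 10 genes, each called gene of a list or, in a list with none, the 2 with the lowest adjusted p, and the 5 genes most like Sox18 and Edn1.

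The labels do not say that arrays of the same number are paired. Correlations of same-numbered deviations between E1 and control were 0.17, 0.19, 0.14, 0.20 and 0.30. For E1 2 and E1 3 the highest correlation was with control 1 and control 2, so the data do not settle a pairing. For ELF arrays, same-numbered correlations with control or E1 ran from -0.43 to 0.31. Probe coordinates are those of mm7, per the file headers. Symbols came from RefSeq transcripts of GRCm38.p6, which matched 22252 kept probes. The number of arrays limits the precision of all differences.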

Additional observations from a re-analysis of the deposited data

Results flagged for a closer look

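Of 51 groups of 5 arrays (17 probes in each group), 2 held an array whose gap to the nearest other exceeded 0.71 of the group's range. Chance alone sets apart about 5% of such groups. Nos3 on control 1 stood at -1.71, while the other 4 control arrays lay between -2.17 and -2.08 (gap 0.803 of the range). Control 1 was also the array with the highest endothelial markers. The second Ednrb probe, A_51_P262964, stood at -1.74 on ELF 2, while the other 4 ELF arrays lay between -0.70 and -0.45 (gap 0.807 of the range). The brighter Ednrb probe was highest, at 0.37, on the same array. The cause of neither was tested.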

How the results depend on the processing

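The count of the 10 genes called lower in E1 versus control was 2 by limma. It was 1 with normexp background and in the fit of only these 2 groups, 0 with slide as a fixed or a random block, 5 with only the 2 groups and the replicate block, and 1 to 4 with 1 array left out. In ELF versus control it was 7. It became 0 with slide as a fixed or a random block, in the fit of only the 2 groups and there with the replicate block, 3 with the replicate block in all 15 arrays, and 0 to 8 with 1 array left out. Chosen after seeing the data, the fit without control 1 and ELF 3 called 2. These counts moved with those over all 26117 genes. In E1 versus control, genes called lower were 745 with only the 2 groups and the replicate block, and 3 to 197 with 1 array left out, against 14. In ELF versus control, the random block and both fits of only the 2 groups called none of all genes, and the fits of only the 2 groups left the differences of the 10 genes as they were. Other alternatives moved neither count by over 1.5 times, and the count for ELF versus E1 was 0 in all.

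Direction changed for Edn1 in ELF versus control with slide as a fixed block (0.08, SE 0.39, limma adjusted p = 0.917). It changed without any call for Sox17 in E1 versus control, at -0.03 with the median shift and with the authors' deposited values, -0.27 with the mean of all probes, -0.13 and -0.01 with slide as a fixed and a random block, and from -0.19 to 0.17 with 1 array left out (-0.01 without control 2 or E1 4, -0.04 without control 3, -0.03 without control 5, 0 without E1 3, -0.19 without E1 5). Slide as a fixed block gave 0.03 for Sox7 and -0.02 for Ednrb in E1 versus control. The mean of all probes gave 0 and -0.14 for Ednrb against control in E1 and ELF, and -0.14 for Ednrb and 0.16 for Sox17 in ELF versus E1. The cause of these changes was not tested.

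Over all genes, the split of calls in ELF versus control was 173 lower and 389 higher, and 806 and 781 in the authors' deposited values. With 1 array left out it ran from 0 and 0 (without control 2 or control 3) to 492 and 1617 without control 5 and 713 and 4451 without ELF 4, so the shares of all genes printed beside the counts rest on these arrays too. It was 14 and 35 in E1 versus control, where quantile normalization gave 77 and 369 and the median shift 40 and 260. Slide as a fixed block left 3 and 1 in E1 and 62 and 23 in ELF versus control, and gave 4425 and 695 in ELF versus E1 against 0 and 2. The consensus correlation within slides was 0.468. Dim probes, such as that of Edn1, depend on the background correction.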
